A study of Mus musculus with 12 samples.

Results

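Blood drawn after the training period was compared between trained and untrained mice, on the 6 arrays whose titles read trained post (3) or untrained post (3), out of 12 arrays in the series. The arrays were chosen by their titles alone, and all 27381 features on them were followed, with the weight on genes outside B cells and MHC class II. Mice of the strain given as C57B16/J, operated on at 8 to 12 weeks of age to fit a head bar and kept on a reverse light cycle, were deprived of water and held by the head on a floating ball. Trained mice learned to run left or right by the place of a visual cue to earn water, while untrained (control) partners saw the same cues and got water at unpredictable times, so surgery, water restriction, head fixation and the cues were common to both groups. The blood was trunk blood taken at death in both groups, and each array held RNA pooled from 7 mice with globin transcripts depleted. Blood before training, given below for comparison, was drawn during the surgery through a nick over the fronto-nasal sinus. Values before and after training thus also differ in how the blood was taken. Replicates 1 and 2 of each group carry the label batch 1 and replicate 3 the label batch 2, which came from a repeat of the experiment with 1 pool per condition. The labels name 34 mice (16 male and 18 female), whereas 6 pools of 7 different mice at 1 time point would take 42. The paper reports more mice than the labels and describes the pools of each condition in its first experiment as unique. The labels thus do not show that pools shared mice. The p-values measure only the spread between pools, which the fit estimated from all 12 arrays of the series, those before training included.

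Blood RNA is a mixture of transcripts from reticulocytes, platelets, granulocytes, monocytes and lymphocytes, so a level on such an array follows both the mix of cells and what each cell makes. Lymphocyte and myeloid genes carry out antigen recognition, killing and migration, and housekeeping genes for respiration, nucleotide and sterol synthesis, protein folding and protein breakdown are used by nearly all of these cells. MicroRNAs and small nucleolar RNAs are short RNAs that direct silencing of messenger RNAs and chemical modification of ribosomal RNA.

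The lowest p-value of all features belonged to a microRNA precursor, and the microRNAs named here are those with the smallest p-values in each direction. Their mature sequences show what each precursor gives rise to, from RefSeq on GRCm38.p6, written 5′ to 3′ with the seed (bases 2 to 8, which pair with targets) in capitals. The array probes read the precursor gene and its host transcript region and do not measure the mature RNA. Precursors with lower values in trained blood were Mir669n (chr3:115979905-115979924 on the + strand for its mature RNA), Mir5120 (chr4:44607536-44607558, - strand) and Mir335 (chr6:30741314-30741336, + strand, for the 5p arm):
mmu-miR-669n: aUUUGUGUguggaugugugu
mmu-miR-5120: uUUGGGGCuguggugccaccagc
mmu-miR-335-5p: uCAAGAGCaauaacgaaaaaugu
Precursors with higher values were Mir1900 (chr9:21032261-21032282, - strand), Mir188 (chrX:7248031-7248051, - strand, for the 5p arm) and Mir26a-1 (chr9:119031811-119031832, + strand, for the 5p arm):
mmu-miR-1900: gGCCGCCCucucugguccuuca
mmu-miR-188-5p: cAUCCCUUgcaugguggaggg
mmu-miR-26a-5p: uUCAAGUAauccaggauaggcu
No seed was shared among these 6. The seed of miR-26a-5p is also that of miR-26b-5p, whose gene Mir26b differed by 0.13 log2 (SE 0.12, adjusted p = 0.893).

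All values are log2 intensities as deposited, differences are trained minus untrained on that scale from a limma fit with batch as a term, and array values are given in replicate order with batch 2 last. Array medians lay between 1.436 and 1.519, the median of the feature means over the 12 arrays was 1.471, and the 6 arrays correlated pairwise at a Pearson r of 0.965 to 0.977 across features. The blood label was borne out by Alas2, the first enzyme of heme synthesis in red cells (mean 12.2 over the 6 arrays), Pf4 of platelets (8.28), Cd79a of B cells (6.78), Cd3e of T cells (6.55) and Csf3r of neutrophils (5.36), while Gfap of astrocytes (2.18) and Krt5 of epithelium (2.05) were low. Acta1 of skeletal muscle stood at 4.18.

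No feature passed an adjusted p of 0.05 in either direction (0% of 27381 higher and 0% lower), and the smallest adjusted p was 0.267. At an unadjusted p under 0.05 limma gave 830 features higher in trained blood (3.03%) and 926 lower (3.38%), 1756 in all (6.41%). With every array centred on its median these were 1187 and 574, so the share higher among them moved from 47.3% to 67.4% with the scaling. The 3 trained arrays lay above the 3 untrained arrays for 1325 features (4.84%) and below them for 1996 (7.29%). In simulated data of the same size a difference of 0.5 log2 was not recovered and 75% of differences of 1 log2 were, while the median SE of a difference here was 0.157, so most of the differences that follow are of a size that the design could not call.

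The batches were then set side by side. Of all features 50.5% had a difference of the same sign in batch 1 (2 trained against 2 untrained arrays) and batch 2 (1 against 1), 6275 being higher in both (22.9%) and 7543 lower in both (27.5%). Pearson r between the batches across features was -0.01, a description over features that share arrays. Restricting to features with a mean at or above the median gave 49.9% and r = -0.03. Among the 2738 features with the highest means r was -0.20. Of 1877 features with an unadjusted p under 0.05 in batch 1 alone, 46.7% kept their sign in batch 2, and of 127 features that differed by at least 1 log2 in batch 1, 37.0% did. The difference between batches was itself fitted with limma, which gave an unadjusted p under 0.05 for 1513 features (5.53%) and an adjusted p under 0.05 for 0 (0%), with a smallest adjusted p of 0.117. Batch 2 has 1 array per group, and its median absolute difference was 0.203 against 0.151 in batch 1.

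**Figure D1:**
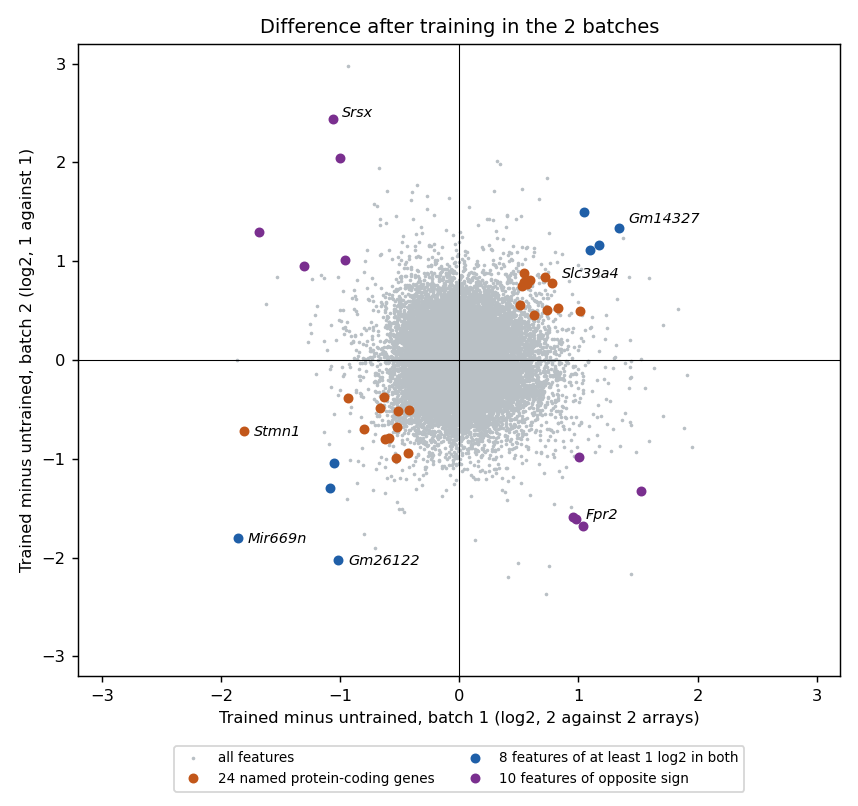
Trained minus untrained difference (log2) of each of the 27381 features in batch 1 (x axis, 2 against 2 arrays) and batch 2 (y axis, 1 against 1), with named features coloured by how they were chosen. The cloud has no slope (r = -0.01), and Mir669n (-1.86 and -1.80) and Gm14327 (1.34 and 1.34) lie far out along the diagonal while Srsx (-1.07 and 2.44) and Fpr2 (0.98 and -1.61) lie off it.

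A few features differed by at least 1 log2 the same way in both batches, 10 of 27381 (0.0365%), of which 8 were outside the immunoglobulin genes and had a mean at or above the median. Of the other 2, Psma5 had a mean under the median and Ighv1-7 is an immunoglobulin segment. The rule used the batch values, so these are given as a description. Mir669n, of the sequence above, had 3.22, 3.14 and 3.04 in untrained and 1.78, 0.87 and 1.24 in trained blood. The closest arrays of the groups were 1.26 log2 apart, and the fitted difference was -1.84 (SE 0.25, adjusted p = 0.267). Trained values of 0.87 and 1.24 lay under the median of all features, so no fold is given. Gm14327, a transcribed pseudogene on chromosome 2, had 2.17, 2.56 and 2.34 against 3.92, 3.50 and 3.68. Its groups were 0.93 log2 apart in the other direction, with 1.34 log2 in both batches (SE 0.20, adjusted p = 0.267), and before training the same difference was 0.35. Psma5, an alpha subunit of the proteasome core, had 1.16, 0.22 and 0.71 against 2.47, 1.66 and 1.94, which did not overlap, for a difference of 1.33 (SE 0.24, adjusted p = 0.410). Its untrained values lay under the median of all features, where the size of a fold is uncertain because no detection call was used. Gm26122, annotated as a small nuclear RNA, had a difference of -1.35 (-1.02 and -2.03 in the batches, adjusted p = 0.496). Gm24504, a pseudogene, stood at -1.05 (-1.06 and -1.04, adjusted p = 0.332) with groups that did not overlap, after -0.45 before training. Gm10335 (1.17), Gm5796 (1.10), Apol7e (1.20) and Bloc1s2 (-1.16), a subunit of the lysosome-positioning BLOC-1 and BORC complexes, had adjusted p-values of 0.599 to 0.723. Of these last 4, the groups overlapped in Gm10335, Apol7e and Bloc1s2. The difference of Gm10335 had been -0.94 before training and that of Apol7e 0.71. Apol7e had 2.26, 3.75 and 2.17 against 3.96, 4.15 and 3.67, and without untrained post 2, the high untrained array, its difference was 1.70 with an adjusted p of 0.0149.

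Protein-coding genes were named by the smallest p-values among those with a mean at or above the median, the same sign in both batches and groups that did not overlap, which 749 genes met as higher and 557 as lower. The batch values and the separation of the arrays were used to choose them and are given as a description. The 12 higher genes differed by 0.52 to 0.84 log2 with adjusted p-values of 0.332 to 0.553. Their batch 2 differences were 0.46 to 0.88, and the same differences before training were -0.26 to 0.27.

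Taken by role, 5 of the 12 higher genes act in transport and trafficking. Slc39a4, which imports zinc across the plasma membrane, had 2.32, 2.06 and 2.19 in untrained against 2.81, 3.13 and 2.97 in trained blood. All trained arrays lay above all untrained ones, and the difference was 0.78 in each batch (SE 0.13, adjusted p = 0.332), 1.72-fold. Gak, a kinase that helps strip clathrin from vesicles, had 3.49, 3.27 and 3.02 against 3.98, 3.92 and 3.78 (0.64, SE 0.13, adjusted p = 0.496). Dctn5, a dynactin subunit of the microtubule motor complex, differed by 0.52 and Rab5if, a Rab5-interacting factor, by 0.60. Srp19, which takes part in targeting secreted proteins as a subunit of the signal recognition particle, differed by 0.66 (0.54 and 0.88 in the batches).

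Regulators of signalling and transcription formed another group of the 12. Inpp5d, the lipid phosphatase SHIP1 that restrains signalling in blood cells, had 3.87, 4.18 and 3.87 against 4.63, 4.89 and 4.38 (0.66, SE 0.15, adjusted p = 0.551). E2f4, a repressor of cell cycle genes in resting cells, had 3.77, 4.02 and 3.71 against 4.55, 4.42 and 4.53. The 3 trained values of E2f4 spanned 0.12 log2, and the difference was 0.66 (SE 0.15, adjusted p = 0.496). Crip1, a small LIM domain protein, had 3.07, 3.23 and 3.27 against 4.28, 4.05 and 3.77, the largest difference of the 12 at 0.84 (SE 0.18, adjusted p = 0.496), and its batch 1 difference (1.01) was larger than that of batch 2 (0.50). Tsc22d4, a leucine zipper regulator, differed by 0.76 and Tcf25, known from yeast and human cells in the quality control of stalled ribosomes, by 0.73. The metabolic enzymes among the 12 were Pon2, an intracellular paraoxonase (0.57), and Ckb, the brain-type creatine kinase (0.62, with 0.54 and 0.79 in the batches).

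The 12 lower genes differed by -0.45 to -1.44 log2, with adjusted p-values of 0.332 to 0.599 and batch 2 differences of -0.38 to -0.99. Several are known for developmental or neural roles and had values near the median of all features. The median level of the 12 was 1.83, against 3.81 for the 12 higher. Some values lay under the median of all features, as in every trained array of Zc2hc1c and Fam90a1a. No detection call was used, so whether such genes are expressed in blood is uncertain. Pin4, a peptidyl-prolyl isomerase of the parvulin family, had 1.94, 1.96 and 2.21 in untrained and 1.07, 1.23 and 1.51 in trained blood. The closest arrays of the 2 groups were 0.42 log2 apart, and the fitted difference was -0.77 (SE 0.13, adjusted p = 0.332). Dnm1, the dynamin of synaptic vesicle uptake, had 2.74, 2.90 and 2.64 against 1.85, 1.91 and 2.26 (-0.75, SE 0.16, adjusted p = 0.496). Stmn1, which destabilises microtubules and is abundant in dividing cells, had 4.69, 3.93 and 3.39 against 3.09, 1.92 and 2.67. This was the largest of the 12 at -1.44 (SE 0.37, adjusted p = 0.599), but its 6 values spanned 2.77 log2 and the groups had already differed by -1.05 before training.

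The transcription factors Emx1 of the forebrain (-0.61), Atoh1 of hair cells and cerebellar granule cells (-0.68) and Hes3 of the Notch response (-0.60) were also among the lower 12. So were Rgr, an opsin-like receptor of the retina (-0.55), Cyp4x1, a cytochrome P450 (-0.45), Tmem88, an inhibitor of Wnt signalling (-0.52), and Zc2hc1c (-0.68), Fam90a1a (-0.57) and Nrip3 (-0.65). Cyp4x1 had the smallest SE of the 12 (0.11), with 2.21, 2.11 and 2.21 against 1.70, 1.77 and 1.70. Its arrays within a group were nearly level, and its adjusted p was 0.589. Before training the differences of the 12 other than Stmn1 lay between -0.20 and 0.21.

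**Figure D2:**
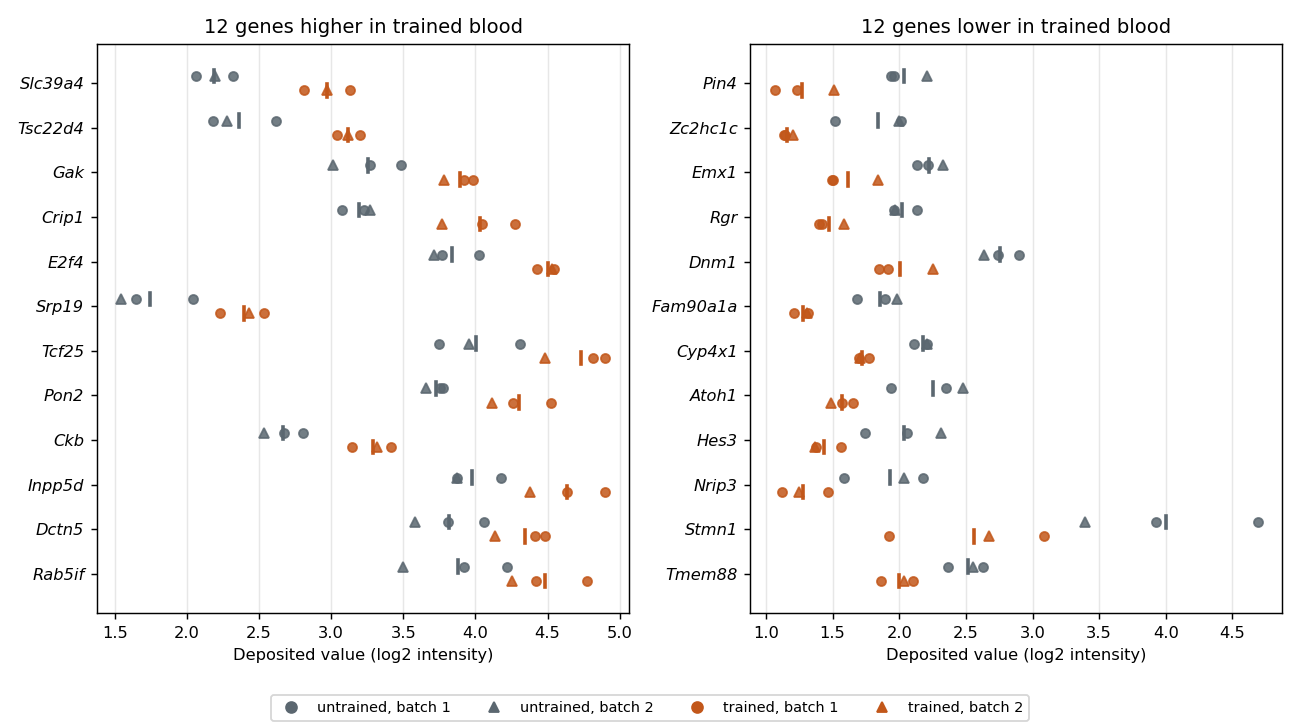
Deposited log2 value (x axis) in each of the 6 arrays for the 12 higher and 12 lower protein-coding genes, with circles for batch 1, triangles for batch 2 and a vertical tick at each group's mean. Groups do not overlap in any of the 24 because the rule required it, and Stmn1 has the widest spread (1.92 to 4.69).

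Features were also counted by RNA class. Of 531 microRNA features 8 had an unadjusted p under 0.05 as higher (1.51%) and 27 as lower (5.08%), and of 889 small nucleolar RNA features 9 were higher (1.01%) and 36 lower (4.05%), beside 3.03% and 3.38% of all features, with none past an adjusted p of 0.05. The counts were 7 and 33 of 650 small nuclear RNAs, 25 and 161 of 3240 long non-coding RNAs and 675 and 604 of 20262 protein-coding genes. Centring every array on its median added 0.04 log2 to each difference. The counts were then 8 and 20 for microRNAs, 15 and 24 for small nucleolar RNAs and 11 and 23 for small nuclear RNAs. They were 50 and 102 for long non-coding RNAs and 968 and 358 for protein-coding genes. The centred counts over all 27381 features, beside which these belong, were 1187 and 574. The shares of 3.03% and 3.38% hold for the values as deposited only. Class medians moved with the centring, from -0.05 to -0.01 for microRNAs and for small nucleolar RNAs and from -0.01 to 0.04 for protein-coding genes. The features of these RNA classes also had low means, with class medians of 0.56 to 1.13 against 1.64 for protein-coding genes.

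Among the named precursors Mir5120 had 2.77, 2.81 and 2.59 against 1.50, 2.20 and 1.18, a difference of -1.10 (SE 0.23, adjusted p = 0.496) that followed -0.43 before training. Mir335 had 1.05, 1.56 and 1.36 against 0.48, 0.67 and 0.54 (-0.76, SE 0.14, adjusted p = 0.496). All untrained arrays lay above all trained ones in both genes, and the trained values of Mir335 lay under the median of all features, at which the fold is uncertain. Mir1900 (0.61), Mir188 (0.58) and Mir26a-1 (0.37), with the mature sequences given above, had larger differences in batch 2 (1.00, 0.74 and 0.67) than in batch 1 (0.41, 0.50 and 0.23), and adjusted p-values of 0.706 to 0.723. The groups of Mir188 met at trained post 2 (1.92) and untrained post 3 (1.92) and were apart otherwise. Snord13, a small nucleolar RNA known in human cells to guide acetylation of 18S ribosomal RNA, had 2.94, 2.84 and 2.73 against 1.71, 2.37 and 1.71 (-0.91, SE 0.24, adjusted p = 0.599). Snord88c, in contrast, had 2.15, 2.88 and 1.60 against 3.08, 2.90 and 3.03 (0.79, SE 0.28, adjusted p = 0.723), with untrained arrays far apart and trained arrays close. Gm24568 (-0.92) and Gm23168 (-0.55) were the other lower small nucleolar RNA genes, and Gm24280 (0.59) and Gm23748 (0.37) the other higher ones.

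Genes were next read by function over 49 lists of cell types and pathways, 47 of them outside B cells and MHC class II. None of their 1158 distinct members passed an adjusted p of 0.05. Of the 47 medians 36 were above 0 and 11 below in the fit, 34 were above 0 in batch 1 and 27 in batch 2, and 20 were above 0 and 6 below in both. A median of at least 0.1 log2 in both batches was found for 7 lists, and of -0.1 or less in both for 0. Medians of all features with similar means were computed beside these, because features with higher means leaned to higher values, and 31 of the 47 list medians exceeded that level-matched value. Over all features 46.7% were higher by the fit, and 54.9% of those with a mean at or above the median. Features were also split by mean into 10 groups. A list's level share is the percentage of features higher by the fit in the group that holds its median level. Leaving out each array in turn changed the sign of 20 of the 47 medians, and 27 kept it.

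**Figure D3:**
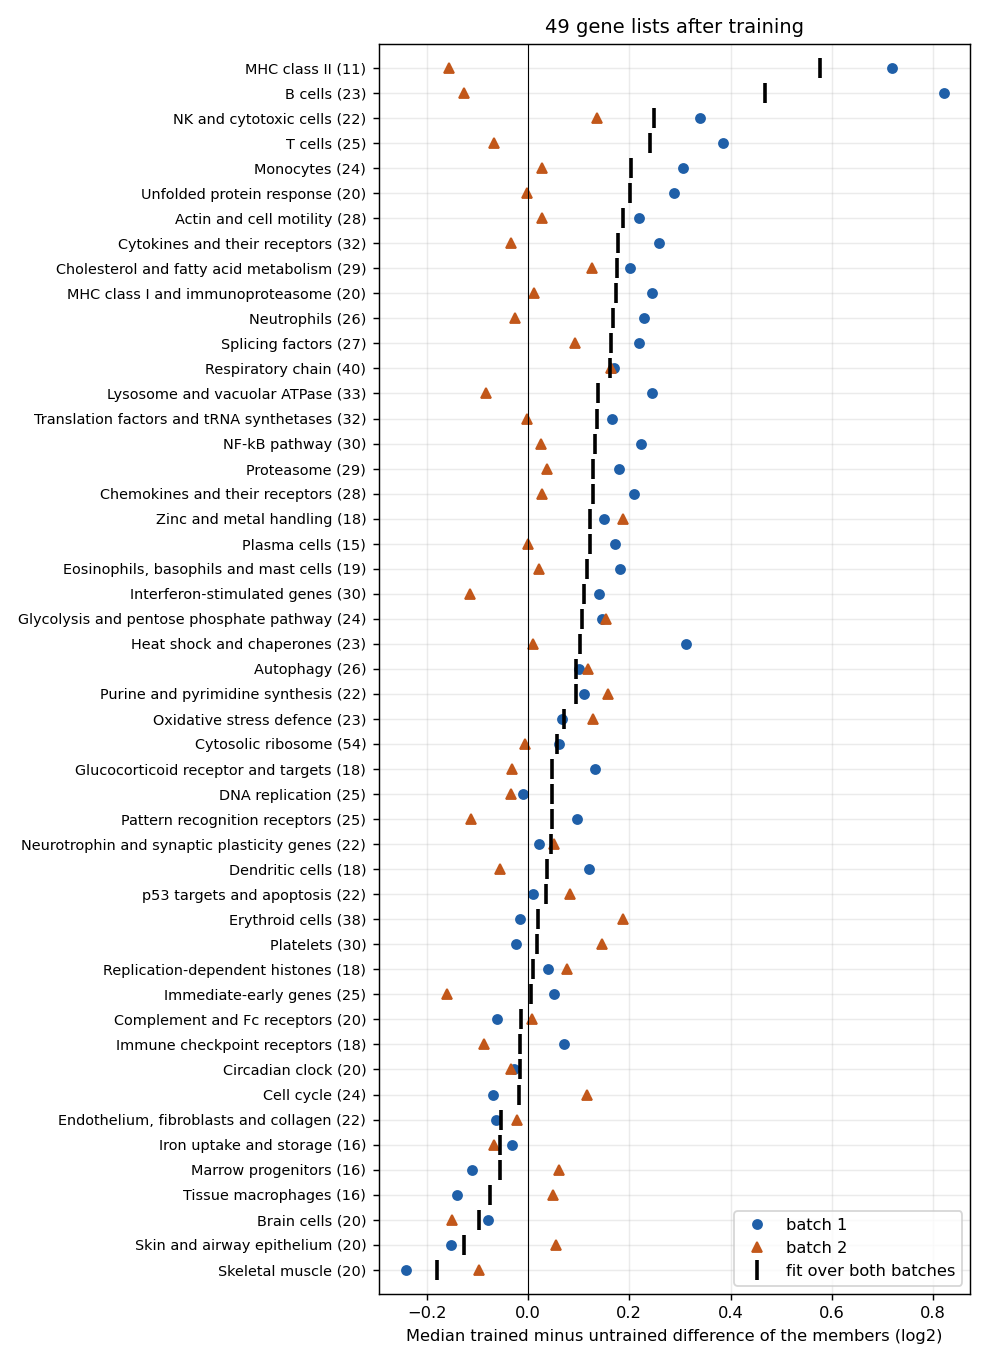
Median trained minus untrained difference (log2, x axis) of the measured members (number in brackets) of 49 gene lists in batch 1 (circles), batch 2 (triangles) and the fit over both (bars), ordered by the fit. B cells (0.82 and -0.13) and MHC class II (0.72 and -0.16) have the widest gap between batches, and the respiratory chain (0.17 and 0.16) among the smallest.

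The respiratory chain, the mitochondrial complexes that pass electrons to oxygen and make ATP, had nearly equal medians in the batches, 0.17 in batch 1 and 0.16 in batch 2. Of its 40 measured nuclear-encoded members 19 were higher in both batches and 3 lower in both, and the others changed sign. Of all features 22.9% were higher in both, and 28% of those at or above the median. By the fit 34 members were higher and 6 lower, where 46.7% of all features were higher and 54.9% of those at or above the median. The level share was 64.7%. The list's median was 0.16 against 0.08 for features of the same level, and -0.09 before training. An unadjusted p under 0.05 was reached by 6 members as higher and by 1 as lower, where 3.03% and 3.38% of all features and 5.05% and 2.98% of those at or above the median reached it. The mean deviation of its members, called its score here, was -0.07, -0.09 and -0.10 in the untrained arrays and 0.16, 0.11 and -0.01 in the trained arrays. Trained arrays lay above untrained ones in this score and in that of purine and pyrimidine synthesis, 2 of 49 lists. That share is no larger than the 4.84% of all features that did so, and it does not set these lists apart. Without 1 array at a time the median lay between 0.14 and 0.22.

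Cox4i1, a subunit of cytochrome c oxidase, had 3.58, 3.58 and 3.58 against 4.16, 4.47 and 3.84. The untrained arrays spanned 0.0052 log2, and the difference was 0.58 (SE 0.16, adjusted p = 0.620), after -0.56 before training. Sdha (0.45, with 0.49 and 0.37 in the batches), which oxidises succinate in complex II, and Atp5d (0.40, with 0.32 and 0.55), of ATP synthase, were positive in both batches, whereas Atp5a1 (0.65 and -0.08) and Ndufb5 (0.71 and -0.00) were higher in batch 1 only. Cox7b, another cytochrome c oxidase subunit, ran the other way with 0.85, 0.74 and 1.05 against 0.46, 0.28 and 0.41 (-0.49, SE 0.15, adjusted p = 0.706). Complex II was not uniform, since Sdhb stood at -0.40 and Sdhc at 0.38, each with the same sign in both batches.

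Of the members with an unadjusted p under 0.05, Sdha is shown because its promoter held the recognition sequence of NRF1, a factor known for binding upstream of respiratory genes. These are the 250 bases before its start in RefSeq on GRCm38.p6 (chr13:74350241-74350490, - strand), with the matches on either strand to GCGCA, any base, then GCGC in capitals, 3 in all and none overlapping:
Sdha: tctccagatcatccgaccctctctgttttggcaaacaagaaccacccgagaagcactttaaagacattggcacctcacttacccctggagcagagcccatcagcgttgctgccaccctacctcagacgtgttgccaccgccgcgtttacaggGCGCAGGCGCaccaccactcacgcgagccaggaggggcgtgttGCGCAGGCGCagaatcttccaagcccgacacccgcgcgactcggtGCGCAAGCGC
The sequence occurred in 6 of the 29 respiratory chain members with a listed promoter (Atp5c1, Atp5k, Cox6a1, Ndufs6, Sdha and Sdhd) and in 3.74% of 32851 promoters of that length. The first count is by gene, over any of its promoters, and the second by promoter, so the shares are not like for like. The 6 genes differed from each other in direction, from -0.15 for Ndufs6 to 0.45 for Sdha, and a match is a description of the letters.

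Nucleotide synthesis gave the other score without overlap, with untrained arrays at -0.06, -0.04 and -0.06 and trained arrays at 0.12, 0.05 and -0.02. The closest arrays of the groups were thus -0.04 and -0.02. Its median was smaller (0.09, with 0.11 and 0.16 in the batches, against 0.01 for features of the same level). Of its members 13 were higher and 9 lower (level share 51.9%), and without trained post 2 the median was -0.01. Prps1, which makes the ribose phosphate that purines are built on, had 1.73, 1.62 and 1.54 against 2.68, 2.31 and 2.53. The closest arrays of the groups were 0.58 log2 apart, and the difference was 0.88 (SE 0.22, adjusted p = 0.599), 1.84-fold, after -0.16 before training. The salvage enzymes Aprt (0.32) and Hprt (0.31) were the remaining members with an unadjusted p under 0.05, and Hprt had differed by 0.42 before training.

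Sterol and fatty acid metabolism had a median of 0.18 (0.20 and 0.13), against 0.01 for features of the same level. Of its members 21 of 29 were higher (level share 51.9%), and its median lay between 0.12 and 0.23 without 1 array. Srebf2, the transcription factor that switches on cholesterol synthesis, had 3.25, 3.39 and 3.34 in untrained and 3.98, 3.79 and 3.72 in trained blood. Its groups did not overlap, and the difference was 0.50 (SE 0.14, adjusted p = 0.649). Several enzymes of the same pathway were not positive in both batches, among them Hmgcs1 (0.07 and -0.15), Cyp51 (0.05 and -0.20) and Idi1 (-0.09 and -0.31). Fdft1, which makes squalene, stood at 0.57 (0.80 and 0.13).
The promoter of Srebf2 is shown because it held ATCAC followed directly by CCCA and any base, the core of a sterol regulatory element. Of 20 members of this group with a listed promoter only Srebf2 held it, and 0.240% of 32851 promoters did on either strand. The first count is by gene and the second by promoter. The Srebf2 promoter spans chr15:82147019-82147268 on the + strand of GRCm38.p6, with the match in capitals:
Srebf2: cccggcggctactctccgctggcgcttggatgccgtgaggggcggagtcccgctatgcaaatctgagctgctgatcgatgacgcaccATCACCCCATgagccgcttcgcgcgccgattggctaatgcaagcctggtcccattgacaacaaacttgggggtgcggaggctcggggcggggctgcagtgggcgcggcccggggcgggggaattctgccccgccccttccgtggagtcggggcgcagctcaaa

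Glycolysis and the pentose phosphate pathway had 0.15 in both batches and 0.11 in the fit, where features of the same level had 0.08. Of its members 18 of 24 were higher, against a level share of 64.7%. Over all features 46.7% were higher. Pgd, which makes NADPH in the pentose phosphate pathway, had 4.32, 4.09 and 4.09 against 4.53, 4.97 and 4.42 (0.47, SE 0.17, adjusted p = 0.723) and Pfkm, the muscle phosphofructokinase, ran lower (-0.32). Both had differed by -0.41 and -0.42 before training, so only Pfkm had the same sign at both times. Zinc and metal handling (0.15 and 0.19) was led by Slc39a4, and its next members were Slc39a14 (-0.27) and Slc39a6 (0.25).

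The heat shock and chaperone list had 17 of 23 members higher (level share 64.7%) and medians of 0.31 and 0.01. Its median in the fit was 0.10, against 0.08 for features of the same level, and without trained post 2 it was -0.06. Stip1, which hands clients from Hsp70 to Hsp90, had 3.50, 3.25 and 2.88 against 3.66, 4.04 and 3.46 (0.51, SE 0.14, adjusted p = 0.599, with 0.47 and 0.58 in the batches). The groups of Stip1 overlapped by 1 pair of arrays. Cct2 (0.83 and 0.20) and Cct3 (0.70 and 0.08), of the ring that folds actin and tubulin, were higher mainly in batch 1, and Hspe1, the mitochondrial co-chaperonin, stood at 0.32 and 0.68. Hsp90aa1, the inducible cytosolic Hsp90, ran against its list with 3.45, 3.09 and 3.95 against 3.27, 1.86 and 2.04, a difference of -1.11 (SE 0.31, adjusted p = 0.649), and trained post 1 lay among the untrained arrays.

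The proteasome had 22 of 29 members higher (level share 64.7%). Its medians were 0.18 and 0.04, with 0.13 in the fit against 0.08 for features of the same level. Beside Psma5, Psma2 had 3.91, 3.95 and 3.70 against 4.31, 4.36 and 4.30 (0.47, SE 0.13, adjusted p = 0.599), with trained arrays that spanned 0.061 log2. Autophagy reached 0.10 and 0.12, with 0.09 in the fit against 0.08 for features of the same level. Map1lc3b, which coats the autophagosome membrane, had 5.82, 5.56 and 5.49 against 5.84, 6.43 and 6.03 (0.48, SE 0.20, adjusted p = 0.766), with the closest arrays 0.02 log2 apart. Of 54 ribosomal proteins 32 were higher and 22 lower (level share 44.4%). Rpl5 (0.75, with 0.56 and 1.14) and Rps25 (-0.40, with -0.44 and -0.31) stood at either end of those with an unadjusted p under 0.05. Among splicing factors the partners of the U2AF dimer, which marks the 3′ end of introns, ran opposite ways, U2af2 at 0.48 (0.36 and 0.71) and U2af1 at -0.56 (-0.79 and -0.11).

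**Figure D4:**
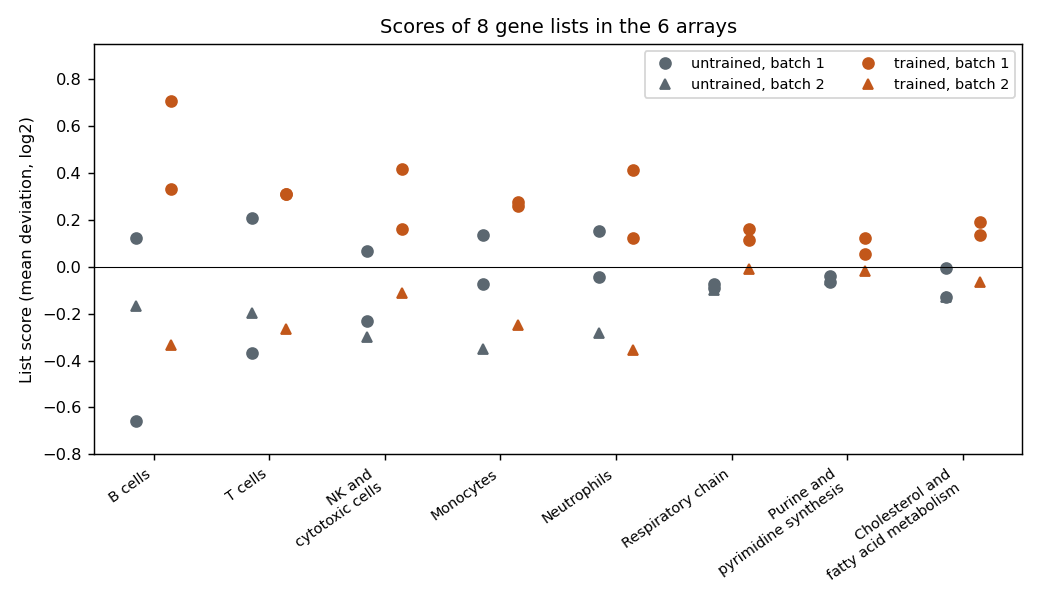
Score (mean deviation of the members from their mean over the 6 arrays, log2, y axis) of 8 gene lists in each array, with circles for batch 1, triangles for batch 2, grey for untrained and orange for trained. Immune scores of trained post 3 sit low (B cells -0.34, T cells -0.27, neutrophils -0.36), and in the respiratory chain and purine and pyrimidine synthesis the groups do not overlap.

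T cell and myeloid lists had higher medians in batch 1 than in batch 2, where they lay near 0. In a bulk sample fewer cells of a type and less RNA per cell cannot be told apart. Medians in the 2 batches were 0.38 and -0.07 for T cells, 0.31 and 0.03 for monocytes and 0.23 and -0.03 for neutrophils, and without trained post 1 that of neutrophils was -0.00. In the fit these lists had 0.24, 0.20 and 0.17 in that order, against 0.11, 0.08 and 0.08 for features of the same level. The scores of these lists moved together over arrays, being below 0 in untrained post 1, untrained post 3 and trained post 3 for B cells, T cells, monocytes and neutrophils alike, and the part of this in the gene differences was not tested. Platelets (0.02) and erythroid cells (0.02) had medians near 0, below the 0.11 of features of the same level, with higher values in batch 2 (0.15 and 0.19).

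Natural killer and cytotoxic cells were the blood cell list with a median above 0.1 in both batches (0.34 and 0.14). Of its members 19 of 22 were higher (level share 51.9%). An unadjusted p under 0.05 was reached by 7 as higher (3.03% of all features and 5.05% of those at or above the median). The median in the fit was 0.25, against 0.01 for features of the same level. Klrd1 (CD94), a receptor chain that reads nonclassical MHC class I, had 3.25, 3.66 and 3.04 against 3.77, 4.62 and 3.93 (0.79, SE 0.24, adjusted p = 0.703), after 0.47 before training. Its groups did not overlap, though the closest arrays were 0.11 log2 apart. Gzma (0.71) and Gzmb (0.38), the granzymes that kill target cells, and Ncr1 (0.47), the NKp46 receptor, were positive in both batches. Among myeloid genes Ms4a4c (0.51 and 1.46), Ace (0.45 and 0.68), an enzyme of patrolling monocytes, and Cxcr1 (0.40 and 0.54), a neutrophil chemokine receptor, were positive in both, and Cxcr1 had differed by -0.55 before training. The lysozyme gene Lyz1 (-0.40, with -0.61 and 0.02) and Mpo, the myeloperoxidase of neutrophil granules (-0.37, with -0.38 and -0.33), ran lower in the fit. Of platelet genes Esam, an adhesion molecule, stood at 0.64 (0.71 and 0.52) and Gucy1a1, the nitric oxide receptor subunit, at -0.51 (-0.75 and -0.02).

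Signalling and recognition genes showed the same split between batches. Interferon-stimulated genes had medians of 0.14 and -0.11, pattern recognition receptors 0.10 and -0.11, cytokines and their receptors 0.26 and -0.03, and the NF-kB pathway 0.22 and 0.03. In the fit these lists had 0.11, 0.05, 0.18 and 0.13 in that order, against 0.01, 0.01, 0.08 and 0.08 for features of the same level. Of the members of these lists 10 of 30, 8 of 25, 15 of 32 and 12 of 30 in that order were positive in both batches. Of all features 22.9% were, and 28% of those with a mean at or above the median, where the medians of these lists lie. Among them were Ifit2 (0.53 and 0.47), an interferon-induced inhibitor of viral RNA translation, Tnfrsf1a (0.49 and 0.70), the receptor of TNF, Ifngr2 (0.36 and 0.58), of the interferon gamma receptor, and Tlr7 (0.26 and 0.75), which senses single-stranded RNA. Sting1, the adaptor of the DNA sensing pathway, was positive in batch 1 only (0.98 and -0.22). Isg15, a ubiquitin-like interferon product, ran lower in both (-0.41 and -0.25), with 3.25, 2.99 and 2.96 against 2.72, 2.70 and 2.71 (adjusted p = 0.777). H2-Q7, a nonclassical MHC class I gene with close paralogs, had 1.62, 2.98 and 2.58 against 3.55, 4.24 and 3.42 (1.34, SE 0.45, adjusted p = 0.723), and which of the paralogs its probes read is uncertain. Vsir (VISTA), an inhibitory receptor of leukocytes, had 4.45, 4.57 and 4.28 against 5.18, 5.09 and 4.71, apart in every pair of arrays (0.56, SE 0.18, adjusted p = 0.723), while the checkpoint receptor list as a whole stood at -0.02.

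Lists of activity, stress hormone and clock genes lay near 0. Immediate-early genes had a median of 0.01 (0.05 and -0.16) with 13 of 25 higher (level share 64.7%). Glucocorticoid receptor targets had 0.05 (0.13 and -0.03), the circadian clock -0.02 (-0.03 in both) and neurotrophin and synaptic plasticity genes 0.05 (0.02 and 0.05). Btg2, an antiproliferative early gene, differed in batch 1 (0.84) and not in batch 2 (-0.04). Ntrk2, the receptor of the neurotrophin BDNF, stood at -0.41 (-0.50 and -0.23, adjusted p = 0.723) with values of 1.32, 1.10 and 1.07 against 0.63, 0.80 and 0.83, all under the median of features. Mcl1, which protects leukocytes from apoptosis, was positive in both (0.56 and 0.60).

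Lists of tissues that can enter at collection lay at the low end. Blood before training was collected from another site, so its values are not like for like with those of trunk blood. Skeletal muscle had 18 of 20 members lower and 2 higher, where the level share of higher features was 44.4%. Its median was -0.18 (-0.24 and -0.10), against -0.02 for features of the same level. It had the same direction before training (-0.40), and Acta1, its actin, had 4.64, 3.82 and 4.83 against 3.79, 3.68 and 4.34, which overlapped. Brain cell genes had 17 of 20 lower and 3 higher, where the level share of higher features was 40.4%. Their median was -0.10 (-0.08 and -0.15), against -0.04 for features of the same level, and 0.00 before training. Among them Snap25, of the synaptic vesicle fusion machinery, had 1.80, 1.41 and 1.76 against 1.25, 1.00 and 1.00 (-0.57, SE 0.15, adjusted p = 0.599). Its groups did not overlap, and the difference before training had been 0.50. Aqp4, the astrocyte water channel (-0.33), and Slc17a7, a glutamate transporter of vesicles (-0.28), had values under the median of features in all 6 arrays, and Gfap overlapped (-0.13). Skin and airway epithelium (-0.13) turned sign in batch 2 (0.05) and without untrained post 1 (0.06).

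The size of the differences went with the level of the feature. In 10 groups of features by mean over the 12 arrays, the 6 lowest had medians of -0.03 to -0.05 and 37.6% to 41.4% of features higher, while the highest had a median of 0.11 and 73.2% higher, and the one before it 0.08 and 64.7%. In the highest group the median was 0.15 in batch 1 and 0.07 in batch 2, and -0.03 before training. Many of the list medians are set beside values of the same level for this reason, and the part of level in single gene differences was not tested.

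**Figure D5:**
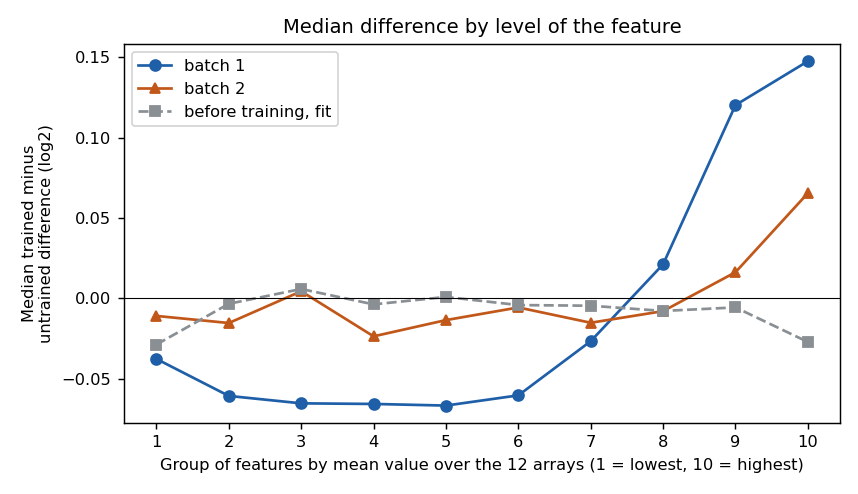
Median trained minus untrained difference (log2, y axis) of features in 10 groups of 2738 or 2739 by mean value (x axis, lowest to highest), in batch 1, batch 2 and, from the fit, before training. After training the highest group is at 0.15 and 0.07 in the batches, and before training at -0.03.

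Some features went opposite ways in the batches. In the 5 with the largest such difference upward in batch 1, Fpr2, a formyl peptide receptor of neutrophils, had 2.48, 2.42 and 3.04 in untrained and 3.48, 3.38 and 1.43 in trained blood. Trained post 3 was thus the lowest of the 6 arrays, and the differences were 0.98 and -1.61. Smarce1, a subunit of SWI/SNF chromatin remodelling complexes, stood at 1.00 and -0.98, Magea2 at 0.95 and -1.59, Gm9257 at 1.04 and -1.68 and Snord61 at 1.52 and -1.33. In the other direction Rpa3, of the complex that coats single-stranded DNA, had 2.94, 2.95 and 1.54 against 1.65, 1.64 and 2.50 (-1.30 and 0.95). Srsx (-1.07 and 2.44), Gm15128 (2.05 in batch 2 and the other sign in batch 1), Gm3650 (-1.68 and 1.29) and Gm32262 (-0.96 and 1.01) completed the 10, and these differences between batches had been the ground for choosing them.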

How the data were processed

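The authors deposited log2 intensities made from Mouse Gene 2.0 ST scans by RMA (affy 1.62.0, R 3.6.0, per the submitters' processing notes), summarised per Entrez gene. Any adjustment of the values between batches before that step or after it: not given in the sources used here. Moderated linear models from limma 3.58.1 (R 4.3.3; lmFit, eBayes) held 4 group means plus batch over all 12 arrays (7 residual degrees of freedom), with two-sided tests, Benjamini-Hochberg adjustment over 27381 features and a threshold of 0.05. No feature was filtered out. Symbols came from the platform table (26794) and RefSeq (564), and 23 features stayed unnamed. The number of arrays limits the precision.

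Members and lists were chosen with earlier results of these data known, so lists were described by counts and medians and not tested. Genes were named by rule: the 12 higher and 12 lower protein-coding genes of smallest p with a mean at or above the median, batches of 1 sign and groups without overlap; 3 per list; 3 microRNAs and 3 small nucleolar RNAs each way; features of at least 1 log2 the same way in both batches with a mean at or above the median, immunoglobulin genes left out; and the 5 each way with the largest opposite batch differences. Further list members are named by role or for an unadjusted p under 0.05, and Ighv1-7 and the promoters shown were picked after their values were seen.

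Of 18 pairs of arrays that share a replicate number, 2 deviated from their group means together with r over 0.1 (-0.19 to 0.135). The main fit treated arrays as unpaired. Mice were trained in pairs of same-sex littermates, and this check cannot show whether the pools were matched. In simulated data with 200 of 27381 features changed, limma recovered 0%, 75% and 98.5% at 0.5, 1 and 2 log2 in this comparison. A few list members are not reported here.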

Additional observations from a re-analysis of the deposited data

How the results depend on the processing

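No feature was called higher or lower under any full-array alternative (no batch term, replicate block, the 6 arrays alone, batch 1 alone, quantile normalization, median centring, limma's trend option, array weights, features at or above the median). Leaving out 1 array at a time gave 0 to 1 features higher and 0 lower after adjustment, the 1 being Apol7e without untrained post 2 (1.70 log2). At an unadjusted p under 0.05 those fits gave 663 to 1142 higher and 698 to 1145 lower. The lower count was 574 with arrays centred on their medians and 319 with features at or above the median, where 64.2% were higher. With a block for replicate number 875 features passed an unadjusted p of 0.05 as higher and 932 as lower, and no call changed. The share of features with the same sign in both batches lay between 49.2% and 51.4% and r between -0.04 and 0.01 over the alternatives. Of 181 named features, which leave out the 10 chosen for opposite batches, 0 changed sign in a tested alternative and 20 had the other sign in batch 2 alone. These features were chosen from the same arrays, most by small p-values and some also by agreement of the batches. A kept sign was thus largely set by the choice and is a description. The alternatives with batch difference, same-level medians and agreement by level were chosen after seeing the data. Differences under about 1 log2 and features near the lowest values are limited by 3 arrays per group and the absence of detection calls.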

Other observations

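Variable segments of immunoglobulins and T cell receptors had a larger share with an unadjusted p under 0.05 as higher than the other gene types counted. Of 264 such features 41 passed an unadjusted p of 0.05 as higher and 3 as lower (15.5% and 1.14%), with a median difference of 0.23 log2, against 3.03% and 3.38% of all features. All trained arrays lay above all untrained ones for 6.82% of them and below for 2.65%. Those shares were 6.24% and 5.38% of features with a mean at or above the median. The split of this class between the batches is not given here. Ighv1-7, an immunoglobulin heavy chain segment picked after its values were seen, had 4.01, 4.55 and 3.71 in untrained and 5.45, 5.42 and 4.86 in trained blood. Its groups did not overlap (1.15 log2 in each batch, SE 0.18, limma adjusted p = 0.332), and it does not stand for the class.

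Of 16 marrow progenitor genes 5 were higher and 6 lower in both batches, and of 18 dendritic cell genes 5 and 4, where 50.5% of all features had the same sign in both. Of the members with an unadjusted p under 0.05, Ccr9, a chemokine receptor of plasmacytoid dendritic cells and gut-homing T cells, stood at 0.63 (0.59 and 0.70), Ikzf2, the Helios transcription factor, at 0.37 (0.25 and 0.60) and Flt3l, a growth factor of dendritic cells, at 0.59 (0.78 and 0.21). Cd34, a surface protein of progenitors and endothelium, ran lower (-0.30, with -0.25 and -0.42). All had adjusted limma p-values of 0.723 to 0.764.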
